A study of Rattus norvegicus and Mus musculus with 3 samples.

Results

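The genes of fatty acid oxidation and acyl-CoA handling were read in 3 hippocampal libraries, 1 per group. They were taken by the beginning of their symbols. Included were the acyl-CoA dehydrogenases (Acad), thiolases (Acaa1, Acaa2), thioesterases (Acot) and acyl-CoA synthetases (Acsl, Acss, Acsf). Further members were the 3-hydroxyacyl-CoA dehydrogenases and trifunctional protein (Hadh), enoyl-CoA hydratases and their relatives (Echs1, Ech1, Echdc, Eci) and dienoyl-CoA reductases (Decr). The rest were carnitine palmitoyltransferases (Cpt1, Cpt2), peroxisomal oxidases (Acox), the peroxisomal bifunctional enzyme (Ehhadh) and epoxide hydrolases (Ephx). This gave 59 of 30438 genes in each rat table and 62 of 34714 in the mouse table, or 63 symbols in all when case was ignored. Of these symbols 58 stood in all 3 tables. Acaa1 was listed in the rats only. Acaa1a, Acad12, Acot10 and Acss2os were listed in the mouse only. The rule reads symbols and no measured value, but the family was picked with earlier results of these data known.

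The 2VO library came from a rat of 3 to 4 months labelled with the 2VO model and genotype WT. The mouse library came from an animal titled as the wild type of 3xTg-AD, a transgenic model of Alzheimer's disease, with genotype WT and an age of 6 months. The Sham library came from a rat of 3 to 4 months, also of genotype WT. In the 2VO model both common carotid arteries are commonly tied off, which reduces cerebral blood flow, and a Sham animal has the surgery but no occlusion. The sources used here do not state the time after surgery, the strain or sex of the animals, or whether several animals were pooled. The authors deposited normalized expression values without naming their unit. They summed to 333941 in 2VO, 268889 in the mouse and 325636 in Sham, and sequencing depth cannot be read from them. Each group holds a single library, so differences have no replicate check and no p-value, and "higher" and "lower" describe these libraries and not the conditions.

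Fatty acids are first joined to coenzyme A by acyl-CoA synthetases. Long chains are then passed into mitochondria by the carnitine palmitoyltransferases, where a cycle of dehydrogenase, hydratase, second dehydrogenase and thiolase removes acetyl-CoA units. Peroxisomes shorten very long chains with their own oxidases, thioesterases release free fatty acids from coenzyme A, and epoxide hydrolases turn epoxides, including those of arachidonic acid, into diols. In brain, fatty acid oxidation is known mainly from astrocytes, while neurons rely chiefly on glucose and lactate.

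The comparison of the 2VO rat with the Sham rat asked how transcripts of these enzymes differ with the vascular model. Most of them lay close together in both rats, and 3 single genes stood apart: Acaa2 was higher in 2VO, and Echdc2 and Ephx2 were lower. In all 50 of the 59 members reached a mean of 1 unit over the rats and were measured. Ratios of 2VO to Sham were taken as log2 after adding 1 unit to each value, and they lay above 0 for 28 members, or 56.0%, beside 58.7% of all genes, and below 0 for 22. Their median was 0.016, against 0.039 over all 13550 genes measured. After scaling to equal upper quartiles the split was 24 above and 26 below and the median -0.016, so the members as a group have no settled direction. Of the 50 members 3 differed by 1.5-fold or more, or 6.0%, beside 2.48% of all genes. Of these 1 was higher, beside 1.51% of all genes, and 2 were lower, beside 0.967%. By 2-fold or more 1 member differed, or 2.0%, beside 0.443% of all genes: it was higher, beside 0.244%, and 0 members were lower, beside 0.199%. A difference under 1.2-fold was found for 39 of 50, or 78.0%, beside 80.6% of all genes. These counts are small, and the 3 genes were already known to stand apart in these libraries when the family was chosen. By the share under 1.2-fold, the set lay about as close together in both rats as genes in general. The SD of the log2 ratio, which includes the 3 genes, was larger, at 0.31 over the members, against 0.24 over all genes. Fewer cells of a type and less RNA per cell cannot be told apart in such tissue samples.

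**Figure D1:**
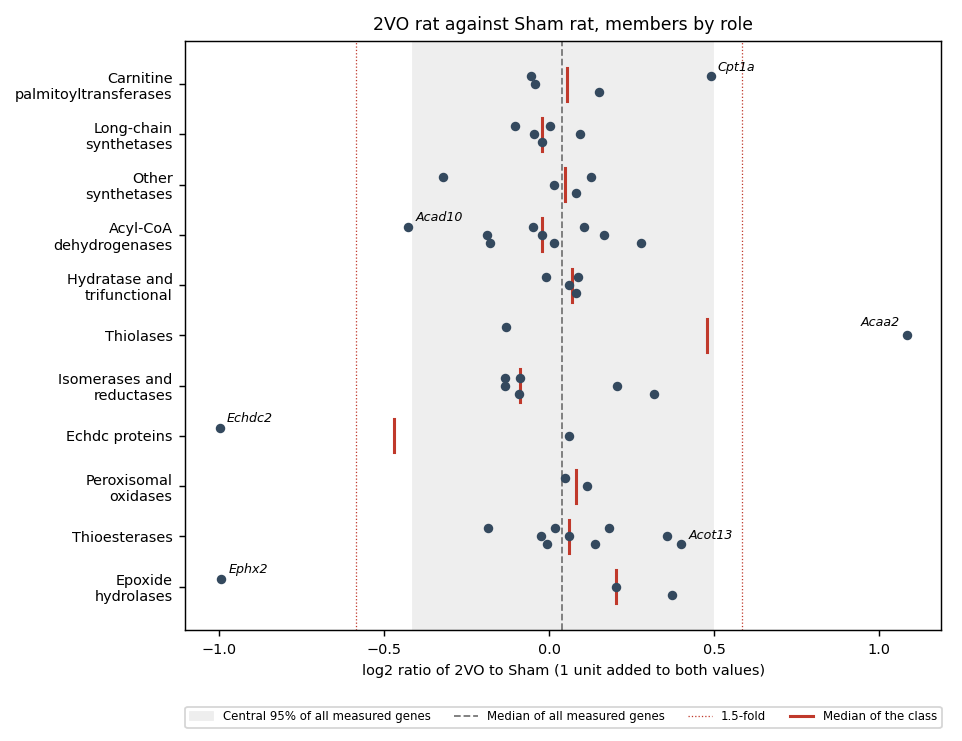
Each point is 1 of the 50 measured members, placed by its log2 ratio of 2VO to Sham after 1 unit was added (x axis) and its role (y axis). Red bars are class medians, and grey shading spans the central part of all 13550 measured genes, from -0.41 to 0.50. Acaa2 at 1.09, Echdc2 at -0.998 and Ephx2 at -0.994 lie past the dotted 1.5-fold lines, and the other points lie between them.

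Acaa2 encodes a mitochondrial 3-ketoacyl-CoA thiolase, which carries out the last step of the oxidation cycle. It was 9.55 units in 2VO, against 3.97 in Sham. The log2 ratio was 1.09, which is 2.12-fold with 1 unit added and 2.40-fold on the values as deposited. The other measured gene of the thiolase class, Acaa1, belongs to peroxisomes, and it was 15.7 in 2VO, against 17.3 in Sham. The mitochondrial trifunctional protein, described below, also holds a thiolase activity for long chains. Its genes Hadha and Hadhb differed by under 1.2-fold between the rats. A mouse level of Acaa2 of 8.70 lay nearer to that of 2VO, so the Sham library held the lowest of the 3 values.

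Echdc2 encodes a mitochondrial protein with an enoyl-CoA hydratase domain. It was 4.92 units in 2VO, against 10.8 in Sham, a log2 ratio of -0.998. Ephx2 encodes the soluble epoxide hydrolase, which hydrolyses epoxides of arachidonic acid that relax blood vessels. It was 3.04 in 2VO, against 7.05 in Sham, a log2 ratio of -0.994. Both ratios sit at the edge of the 2-fold threshold: with 1 unit added they were 0.501 and 0.502, just short of it, and on the values as deposited they were 0.455 and 0.432, past it. The mouse values were 10.7 for Echdc2 and 6.15 for Ephx2, so for these genes the 2VO library held the lowest of the 3 values. Their relatives did not stand apart with them. Echdc1, an ethylmalonyl-CoA decarboxylase, was 8.92 in 2VO and 8.52 in Sham. Ephx1, the microsomal epoxide hydrolase, was 11.4 in 2VO and 8.60 in Sham, and Ephx4 was 14.5 in 2VO and 12.4 in Sham. Of the epoxide hydrolases measured, 2 were thus higher and 1 was lower.

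The members next in size fell short of 1.5-fold. Cpt1a, the liver-type enzyme that admits long chains to mitochondria, had a log2 ratio of 0.49, and Acad10 had -0.43. They were followed by Acot13 at 0.40, Ephx1 at 0.37, Acot3 at 0.36, Acss1 at -0.32 and Ech1 at 0.32. The promoter windows of Echdc2 and Cpt1a are shown because 1 lies past the threshold and the other nearest to it. They come from RefSeq on the rat assembly GRCr8 and run from 250 bases before the annotated start to 50 after it, 5′ to 3′ on the gene's strand. The Echdc2 window lies at chr5:128144636-128144935, plus strand, and the Cpt1a window at chr1:209995910-209996209, plus strand. The submitters' notes name the build mRatBN7.2, so these positions do not apply to that build. Capitals mark every match, on either strand, to the 5 motifs searched. The GC box, bound by Sp1 and its relatives, was searched as GGGCGG. The CCAAT box of general promoters was searched by its own letters. The classical element bound by the TATA-binding protein was searched as TATAAA. The hexamer of nuclear receptors was searched as AGGTCA. The direct repeat that PPAR binds with RXR is 2 copies of that hexamer with 1 base between them, so each repeat also counts as a hexamer.
Echdc2: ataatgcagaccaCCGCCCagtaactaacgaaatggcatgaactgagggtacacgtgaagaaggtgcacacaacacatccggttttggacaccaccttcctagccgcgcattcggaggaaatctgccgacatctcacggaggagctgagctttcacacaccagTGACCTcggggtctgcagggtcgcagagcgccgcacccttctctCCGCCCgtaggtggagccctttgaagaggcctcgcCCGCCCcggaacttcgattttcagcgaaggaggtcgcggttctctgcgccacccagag
Cpt1a: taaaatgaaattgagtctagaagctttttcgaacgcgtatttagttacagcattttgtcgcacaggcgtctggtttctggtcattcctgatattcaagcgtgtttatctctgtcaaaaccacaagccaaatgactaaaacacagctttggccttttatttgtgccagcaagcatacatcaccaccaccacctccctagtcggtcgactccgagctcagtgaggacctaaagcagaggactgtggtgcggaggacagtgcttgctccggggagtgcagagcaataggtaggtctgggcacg
The Echdc2 window held 3 GC boxes and 1 hexamer, and the Cpt1a window held no match to these letters. Promoter windows of 45 of the 59 rat members were read, not including those of Acaa2 and Ephx2. A GC box was present in 32 of the 45, or 71.1%, beside 41.8% of 21851 windows of protein-coding genes. A hexamer was present in 12, or 26.7%, beside 14.2%. A CCAAT box was present in 20, or 44.4%, beside 38.0%, and a TATA box in 4, or 8.89%, beside 13.0%. The direct repeat was in 0 of the 45 and in 5 of the 21851. These matches describe letters in a short window, not binding.

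The carnitine palmitoyltransferases were all measured, and Cpt1a stood alone among them. It was 7.996 units in 2VO, against 5.41 in Sham. Cpt1c, a brain form found in the endoplasmic reticulum, was 30.8 in 2VO and 32.1 in Sham, the highest deposited value of the class. Cpt2, which reforms the acyl-CoA on the inner mitochondrial membrane, was 3.36 in 2VO and 3.49 in Sham, and Cpt1b, the muscle form, was 1.16 in 2VO and 0.946 in Sham. The class thus held 2 members above and 2 below Sham, and their median log2 ratio was 0.055.

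The acyl-CoA synthetases differed little. All 5 long-chain members lay within 1.2-fold, with log2 ratios from -0.10 to 0.093. Acsl3, which is known from the endoplasmic reticulum and lipid droplets, was 63.2 units in 2VO and 59.2 in Sham. Acsl6, the form that favours docosahexaenoic acid in brain, was 45.4 in 2VO and 48.8 in Sham, and Acsl4, which favours arachidonic acid, was 23.43 in 2VO and 23.41 in Sham. Acsl5 was 27.7 in 2VO and 28.7 in Sham, and Acsl1 was 16.1 in 2VO and 16.3 in Sham. Of the acetate enzymes, the cytosolic and nuclear Acss2 was 24.1 in 2VO and 22.01 in Sham. The mitochondrial Acss1 went the other way, at 11.6 in 2VO and 14.7 in Sham. Acsf2 and the malonyl-CoA synthetase Acsf3 had log2 ratios of 0.014 and 0.083.

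Within the mitochondrial cycle the enzymes of the first 3 steps all differed by under 1.5-fold. The 9 acyl-CoA dehydrogenase genes had log2 ratios from -0.43 to 0.28, with 4 above 0 and 5 below. The very-long-chain enzyme Acadvl was 22.3 units in 2VO and 25.6 in Sham, the highest deposited value of this class. The medium-chain enzyme Acadm was 9.31 in 2VO and 9.47 in Sham, the long-chain enzyme Acadl 13.7 in 2VO and 14.2 in Sham, and the short-chain enzyme Acads 8.40 in 2VO and 8.31 in Sham. Acadsb, which acts on short branched chains from isoleucine, was 16.5 in 2VO and 13.4 in Sham. Acad8, the isobutyryl-CoA enzyme of valine breakdown, was 16.7 in 2VO and 19.0 in Sham, and Acad10 was 3.61 in 2VO and 5.19 in Sham.

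Hadha and Hadhb encode the alpha and beta subunits of the mitochondrial trifunctional protein, which joins hydratase, dehydrogenase and thiolase activities for long chains. Hadha was 38.7 units in 2VO and 36.5 in Sham, and Hadhb was 33.06 in 2VO and 33.25 in Sham. Both subunits thus differed by under 1.2-fold between the rats. In the mouse Hadha was 21.96 and Hadhb 20.1. In RefSeq GRCr8 the genes are neighbours on chromosome 6 and are read in opposite directions. Their promoter windows are shown because they overlap by 200 bases: Hadha at chr6:31907551-31907850, plus strand, and Hadhb at chr6:31907451-31907750, minus strand, both on GRCr8 with motif matches in capitals as above.
Hadha: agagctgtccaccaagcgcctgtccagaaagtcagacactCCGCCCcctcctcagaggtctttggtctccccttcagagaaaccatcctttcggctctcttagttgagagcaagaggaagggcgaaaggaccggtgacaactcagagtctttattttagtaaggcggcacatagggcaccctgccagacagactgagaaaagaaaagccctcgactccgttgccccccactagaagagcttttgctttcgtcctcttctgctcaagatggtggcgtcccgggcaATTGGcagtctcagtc
Hadhb: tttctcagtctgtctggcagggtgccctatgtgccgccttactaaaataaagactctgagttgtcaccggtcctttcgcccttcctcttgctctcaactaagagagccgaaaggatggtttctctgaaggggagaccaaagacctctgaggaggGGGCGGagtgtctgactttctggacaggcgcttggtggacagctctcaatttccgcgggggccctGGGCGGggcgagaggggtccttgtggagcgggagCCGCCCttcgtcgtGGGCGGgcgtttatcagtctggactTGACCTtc
The Hadha window held 1 GC box and 1 CCAAT box, and the Hadhb window held 4 GC boxes and 1 hexamer. The Hadha GC box lies in the overlap and is the same site as the first GC box marked in the Hadhb window. It is therefore counted in both windows. For the shorter chains, the hydratase gene Echs1 was 17.5 in 2VO and 16.7 in Sham, and the dehydrogenase gene Hadh was 9.21 in 2VO and 8.62 in Sham.

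The auxiliary enzymes reshape double bonds of unsaturated chains. Ech1, a dienoyl-CoA isomerase, was 35.9 units in 2VO and 28.6 in Sham. Eci2 was 11.8 in 2VO and 10.1 in Sham, whereas Eci1 was 10.3 in 2VO and 11.4 in Sham. The dienoyl-CoA reductase Decr1 was 12.2 in 2VO and 13.5 in Sham, its peroxisomal counterpart Decr2 was 4.28 in 2VO and 4.61 in Sham, and Eci3 was 1.77 in 2VO and 1.95 in Sham. The class held 2 members above Sham and 4 below, and 5 of the 6 lay within 1.2-fold, all but Ech1. In peroxisomes the oxidase gene Acox3 was 5.496 in 2VO, against 5.29 in Sham. Ehhadh, the bifunctional enzyme of the next steps, missed the filter, at 1.10 in 2VO and 0.774 in Sham.

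The thioesterase genes were the largest class, with 9 of 12 measured, 6 above Sham and 3 below. Acot7, the abundant brain enzyme found mainly in neurons, had the highest deposited value of all members, at 107 units in 2VO and 94.3 in Sham. Acot13, which binds to mitochondria, was 12.9 in 2VO and 9.50 in Sham. Acot9, a mitochondrial form, was 16.6 in 2VO and 14.9 in Sham, and Acot8, a peroxisomal form, was 10.01 in 2VO and 10.06 in Sham. Acot11 was 3.45 in 2VO and 3.27 in Sham. Acot1, Acot2, Acot3, Acot4, Acot5 and Acot6 are similar genes that sit in runs of 2 and 4 neighbours on chromosome 6 in RefSeq GRCr8, and how reads shared between copies were assigned is not given. The single values of this group are therefore uncertain: Acot3 was 3.95 in 2VO and 2.86 in Sham, Acot2 3.72 in 2VO and 3.81 in Sham, Acot4 1.52 in 2VO and 1.49 in Sham, and Acot1 1.40 in 2VO and 1.73 in Sham. The same holds for Acaa1 with Acaa1b, and for Eci3 beside its neighbour Eci2 on chromosome 17. Without these 9 genes, 6 of them measured, the median over the remaining 44 members was 0.053. The 9 members below the filter, Acaa1b, Acot5, Acot6, Acot12, Acox2, Acss3, Echdc3, Ehhadh and Ephx3, lay between 0 and 1.10 units in both rats, and Acot12 was listed at 0 in Sham.

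**Figure D2:**
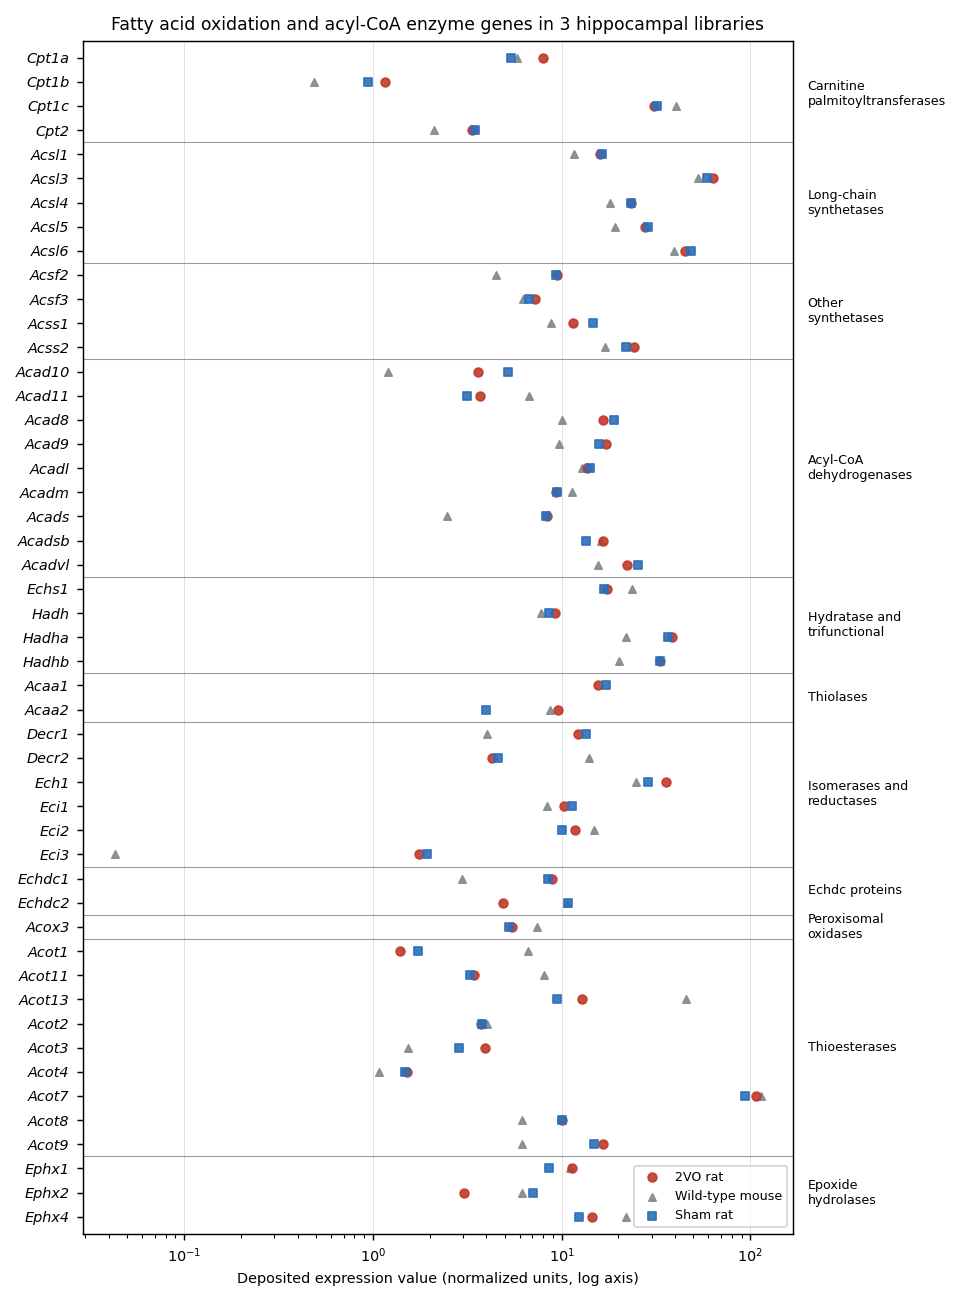
Deposited expression values (x axis, log scale) of 49 of the 50 measured members (y axis, grouped by role) in the 2VO rat, the wild-type mouse and the Sham rat. The rat symbols nearly coincide for most genes and part for Acaa2 (9.55 in 2VO and 3.97 in Sham), Echdc2 (4.92 in 2VO and 10.8 in Sham) and Ephx2 (3.04 in 2VO and 7.05 in Sham). Acaa1 has no mouse symbol because the mouse table names its gene Acaa1a.

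Markers of the cells that could carry these transcripts differed in part between the rat libraries. The 8 astrocyte markers summed to 549 units in 2VO and 554 in Sham, with 3 members higher and 5 lower (1 and 7 under each rescaling tried) and log2 ratios from -0.14 to 0.099. The 7 oligodendrocyte markers summed to 4577 in 2VO and 3667 in Sham, and all 7 were higher in 2VO, also under each rescaling tried. The 7 neuronal markers summed to 1889 in 2VO and 1626 in Sham, with 6 higher. The 7 microglial markers summed to 127 in 2VO and 154 in Sham, with 2 higher and 5 lower. Their log2 ratios ran from -0.78 to 0.60. The 6 choroid plexus markers summed to 6.57 in 2VO and 1.66 in Sham. Most of that gap was Ttr, at 4.75 in 2VO and 0.434 in Sham, and of the 6 only Ttr and Folr1 averaged 1 unit or more. The 4 ependymal markers summed to 24.3 in 2VO and 21.998 in Sham, with 3 higher and 1 lower. Endothelial markers summed to 31.4 in 2VO and 31.4 in Sham over the 4 listed of 6, with 1 higher and 2 lower of the 3 measured. The 5 meningeal fibroblast markers summed to 8.87 in 2VO and 6.73 in Sham, with 1 higher and 1 lower of the 2 measured. Of the 8 hippocampal markers, 7 were measured, with 3 higher and 4 lower and a median log2 ratio of -0.013. All 8 summed to 356 in 2VO and 393 in Sham. Wfs1 alone, at 111 in 2VO and 169 in Sham, differed by more than that gap, and Spink8 was at 0.074 in 2VO and 0.070 in Sham. No marker was listed at 0. The part of these cell types in the differences of Acaa2, Echdc2 and Ephx2 was not tested.

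Genes that work beside these enzymes were read from 9 lists holding 112 symbols, chosen with earlier results of these data known. Of these 109 stood in the rat tables and 94 were measured, outside the members themselves. By 1.5-fold or more 3 of the 94 were higher and 1 was lower, beside 1.51% higher and 0.967% lower of all genes. Elovl7 and Elovl1, which elongate fatty acid chains, were 10.3 and 31.3 units in 2VO, against 5.15 and 19.8 in Sham. Rxrg, a retinoid X receptor that pairs with PPARs, was 2.24 in 2VO and 0.794 in Sham. Mccc2, a subunit of the carboxylase of leucine breakdown, was 14.6 in 2VO and 24.3 in Sham. Mccc1, of the same carboxylase, was 6.19 in 2VO and 6.61 in Sham. The Elovl genes were higher in the library in which the oligodendrocyte markers were higher too, and the part of those cells was not tested.

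Direct partners of mitochondrial oxidation stayed close. The electron transfer flavoprotein genes Etfa, Etfb and Etfdh, which take electrons from the acyl-CoA dehydrogenases, were 21.5, 50.1 and 11.0 units in 2VO, against 19.8, 43.6 and 10.2 in Sham. The carnitine carrier Slc25a20 was 11.6 in 2VO and 11.1 in Sham. Crot, the peroxisomal carnitine octanoyltransferase, was 5.43 in 2VO and 7.96 in Sham, a log2 ratio of -0.48 that missed 1.5-fold. The 11 peroxisomal partners had a median log2 ratio of 0.10, all within 1.2-fold, and the 6 ketone body genes had 0.045. Lipolysis and droplet genes had a median of 0.10 over 11 genes, with Pnpla2, the adipose triglyceride lipase, at 6.43 in 2VO and 4.85 in Sham. Uptake and binding genes had a median of 0.0067 over 11 genes, with the fatty acid binding proteins Fabp3 and Fabp7 at 17.6 and 95.8 in 2VO, against 12.4 and 113 in Sham.

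The list with the highest median was fatty acid synthesis, at 0.21 over 16 genes, with 14 above 0 and 2 below, beside 58.7% of all genes above 0. Under upper-quartile scaling the split was 13 and 3. The list also holds the malonyl-CoA decarboxylase gene Mlycd, which does not encode a synthesis enzyme. Mlycd was below 0, at 13.9 units in 2VO and 15.8 in Sham. Beside the Elovl members of the list, Acly, which makes cytosolic acetyl-CoA, was 44.9 in 2VO and 38.1 in Sham. Fads2, a fatty acid desaturase, was 37.2 in 2VO and 31.1 in Sham. PPAR regulators and targets had a median of 0.17 over 12 genes, 8 above 0 and 4 below, beside the same 58.7% of all genes above 0. Ppara, the receptor that induces oxidation genes in liver, was 2.13 in 2VO and 1.604 in Sham, and its coactivator Ppargc1a was 8.34 in 2VO and 6.62 in Sham. Ucp2, a mitochondrial carrier, went the other way, at 30.4 in 2VO and 38.0 in Sham. Epoxygenase and oxylipin genes had a median of -0.0054 over 6 genes. Of the epoxygenases in this list only Cyp2j3 was measured, and Cyp2j4, Cyp2c11 and Cyp2c23 missed the filter. The median thus rests mostly on other oxylipin genes. Cyp2j3, a rat epoxygenase, was 5.43 in 2VO and 5.98 in Sham, and the prostaglandin synthase gene Ptgs2 was 9.07 in 2VO and 9.66 in Sham.

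**Figure D3:**
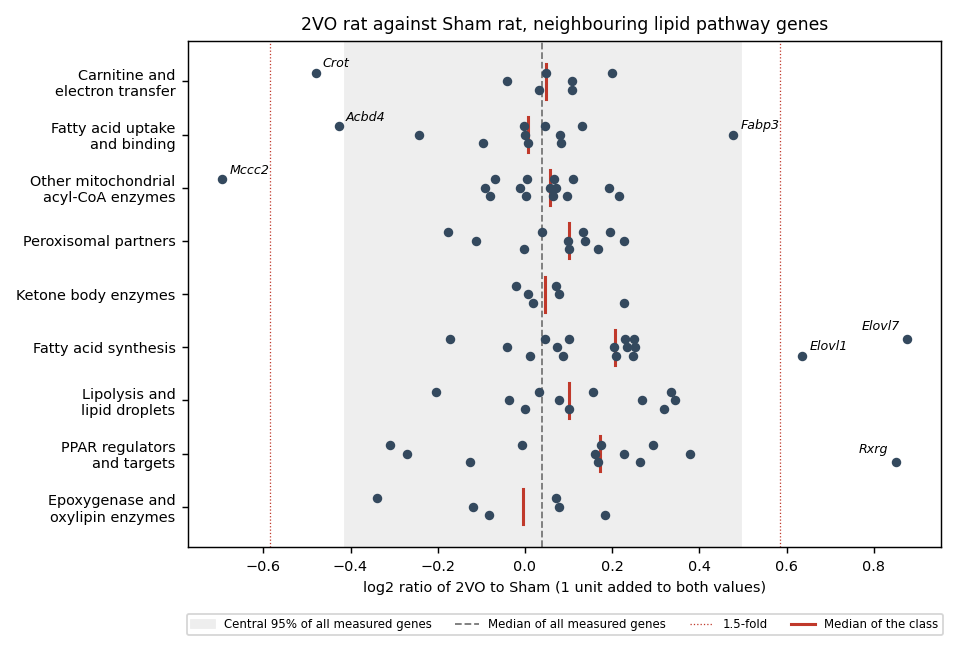
Log2 ratio, 2VO over Sham after 1 unit was added (x axis), of the 94 measured genes of 9 neighbouring lipid pathway lists (y axis; 1 gene stands in 2 lists). Elovl7 at 0.88, Rxrg at 0.85 and Elovl1 at 0.64 lie above the dotted 1.5-fold line and Mccc2 at -0.69 below it, and the other points lie between these lines.

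The wild-type mouse was set beside the Sham rat to show how the levels of these genes compare between the species. Species, strain, age and annotation differ together and cannot be told apart, and no cause is assigned. The log2 ratio of mouse to Sham was taken after the mouse values were multiplied by 1.10, which brings the median ratio of shared genes to 1, and after 1 unit was added. It was read where mouse and Sham averaged 1 unit or more. Of the 58 shared members 48 did so, and their median log2 ratio was -0.039, against -0.00061 over 11436 genes. The SD of the log2 ratio was 0.83 over the members and 0.82 over all genes, whereas between the rats it was 0.31 and 0.24. By 4-fold or more 1 member differed, or 2.08%, beside 2.67% of all genes: it was higher in the mouse, beside 1.13%, and 0 were lower, beside 1.54%. This member was Acot13, at 45.6 units in the mouse, against 9.50 in Sham, a log2 ratio of 2.28.

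Several other members lay 2-fold to 4-fold apart with 1 unit added. Acot1 was 6.63 units in the mouse and 1.73 in Sham, and Acot6 was 2.003 in the mouse and 0.191 in Sham, both with the reservation on gene copies. Decr2, the peroxisomal dienoyl-CoA reductase, was 13.9 in the mouse and 4.61 in Sham, whereas its mitochondrial counterpart Decr1 was 4.03 in the mouse and 13.5 in Sham. The reductases thus took opposite orders in the libraries. Acot11 was 8.11 in the mouse and 3.27 in Sham. In the other direction, Acad10 was 1.21 in the mouse and 5.19 in Sham, and Acads was 2.46 in the mouse and 8.31 in Sham. Echdc1 was 2.97 in the mouse and 8.52 in Sham, and Acot9 was 6.21 in the mouse and 14.9 in Sham. The long-chain synthetase genes had log2 ratios from -0.43 for Acsl5 to -0.023 for Acsl3. Eci3 was 0.043 in the mouse and 1.95 in Sham and missed the filter. Of the members listed in the mouse only, Acaa1a was 20.7 units; RefSeq gives Acaa1 as another name of the rat gene Acaa1a, which was 17.3 in Sham. Acss2os, at 0.675, is named for the strand opposite Acss2, and without strand its reads cannot be told from those of Acss2, at 16.9 in the mouse.

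**Figure D4:**
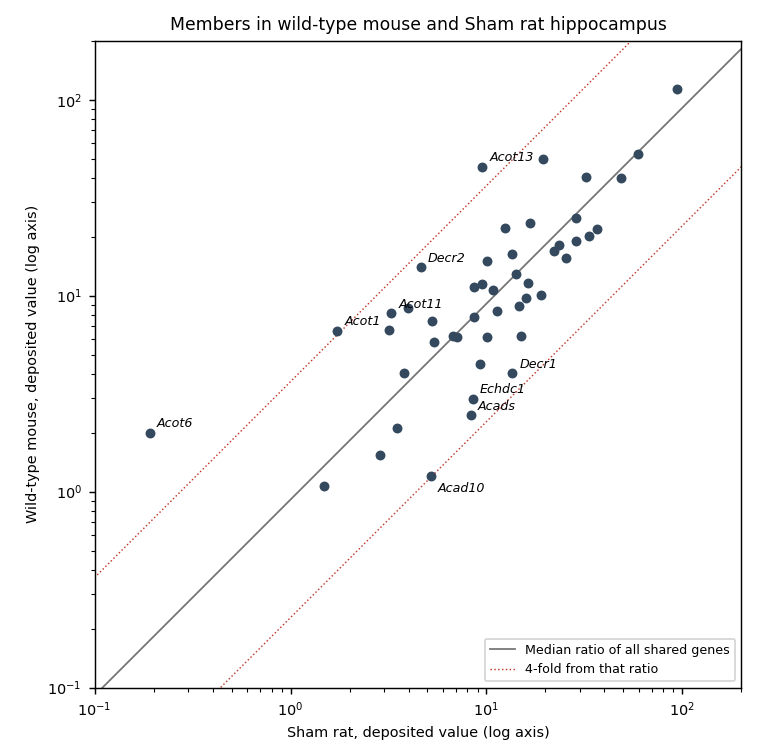
Deposited values of the 48 shared members that averaged 1 unit or more, in the wild-type mouse (y axis) and the Sham rat (x axis), both on log axes. The grey line is the median ratio of all shared genes and the dotted lines are 4-fold from it, drawn without the added unit, so Acot6 (2.003 in the mouse and 0.191 in Sham) and Acot1 (6.63 in the mouse and 1.73 in Sham) fall outside them although their log2 ratios with 1 unit added were 1.43 and 1.60. Acot13, at 45.6 in the mouse and 9.50 in Sham, lies past 4-fold by either reckoning.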

How the data were processed

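Hippocampal total RNA, extracted with TRIzol, was made into libraries by a TruSeq v2 kit, per the labels' protocols. The authors deposited 1 table per library with a normalized expression signal per gene; per the file headers the column carries the group's name and no unit. Per the submitters' processing notes fastp 0.21.0, HISAT2 2.1.0, DESeq2, GRCm39 and mRatBN7.2 are listed, with no roles stated. The quantifier, its annotation and any filter are not given in these sources. Whether values are divided by gene length is not stated. Over 12366 mouse genes at 1 unit or more, Spearman's rho with the longest GENCODE M21 transcript was -0.012, a description across genes. Levels of different genes are given only as deposited.

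Rat values were compared without rescaling and mouse values after scaling to the median ratio, as log2 ratios with 1 unit added, over genes averaging 1 unit or more, which understates differences of low genes. No test was run with 1 library per group, and unknown depth allows no interval or floor. Named in full were members at least 1.5-fold apart between the rats, the highest of each role class and those at least 4-fold apart between mouse and Sham; others are examples. A few genes count in the totals but are left unnamed. The members and lists were chosen with earlier results of these data known. All 59 rat members matched RefSeq GRCr8, 58 by symbol and 1 by synonym. The calculation was tried on simulated data with planted changes well past 2-fold, called at 2-fold. It was not tried on planted changes near that threshold, or at 1.5-fold. Alternatives were other scalings, added units and filters. Python 3.11.15, pandas 2.3.3, numpy 2.4.6, scipy 1.17.1 and matplotlib 3.10.9 were used.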

Additional observations from a re-analysis of the deposited data

How the results depend on the processing

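The counts of members at least 1.5-fold apart between 2VO and Sham, 1 higher and 2 lower, stayed as they were in every setting tried, and so did the directions of Acaa2, Echdc2 and Ephx2. The 2-fold threshold fell between settings. The 0 members at least 2-fold lower became 2 with 0.25 units added, with upper-quartile scaling, with median-of-ratios scaling, with equal sums without the 50 most abundant genes and, added after the data were seen, with centring on the median of all genes, because Echdc2 and Ephx2 sit at that threshold. The 1 member at least 2-fold higher became 0 with 4 units added. Pathway genes at least 1.5-fold higher numbered 1 with 4 units added and 2 with a mean of at least 5 units, against 3. Members at least 4-fold higher in the mouse than in Sham numbered 2 with 0.25 units added. The members' median log2 ratio ranged from -0.023 to 0.053, on both sides of 0. Among all genes at least 1.5-fold apart, 61.0% were higher in 2VO, or 205 higher and 131 lower. That share was 52.0%, or 168 and 155, with upper-quartile scaling and 49.8% with centring. The alternative without members that have close copies was also added after the data were seen. No paired analysis was possible because each group holds 1 library and no result comes from a test. No setting replaces a replicate or supplies the missing depth.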
